A study of Apis mellifera with 6 samples.

Results

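A set of 54 gene models was chosen for a low level in the hypopharyngeal glands of bees from colonies with laying queens, beside a similar level in both groups with caged queens. Fragments per model were divided by 1 size factor per library, and these values are called scaled fragments here. A model entered when the lowest of the 4 Pollen and Honey libraries was at least 6 times the highest Brood library and the Pollen and Honey means lay within 1.5-fold. The rule could take 5018 of the 10704 models in the files, those with a gene number as ID, under 10000 fragments in every library and a mean of 30 or more scaled fragments in some group, with the model gene8632 left out. The 54 were 1.08% of these. The members were thus chosen by their own levels in all 6 libraries, so these levels are given as a description, without a test.

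The hypopharyngeal gland is a paired gland in the head of the worker honeybee, Apis mellifera. In nurse bees it secretes the protein part of brood food, which includes the major royal jelly proteins, and in foragers it turns to enzymes that process nectar sugars. Pollen is the protein source for this secretion, and larvae signal to nurses by brood pheromone.

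The glands came from 6 colonies, with 1 library each. The Brood group received honey and abundant rape pollen and its queens laid freely. The Pollen group had the same food with caged queens, so that brood dwindled. In the Honey group queens were caged too, and the only food was honey. The sample labels give ages of 13 and 14 days for Brood 1 and 2, 9 and 10 days for Pollen 1 and 2, and 11 and 12 days for Honey 1 and 2, whereas the series text gives 9 days for all. The label ages rise by 1 day from each sample to the next in the order of the series, so they may not be true ages. If the sample labels hold, Brood glands were also the oldest, and age and brood cannot be told apart from group means. How many bees made up a library is not given in the labels.

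Library totals were 3459632 and 3525248 fragments in Brood 1 and 2, 4153354 and 3546705 in Pollen 1 and 2, and 4120794 and 2764870 in Honey 1 and 2. The 10 most abundant models held 66.9% and 69.1% of fragments in the Brood libraries, 53.6% and 49.9% in the Pollen libraries and 26.8% and 28.0% in the Honey libraries. The files do not pair their IDs with gene names, and none of the 54 was found by ID among the 12398 genes of a RefSeq table (assembly Amel_HAv3.1). Members are therefore given by ID, position and length, without a function, and gland or other cell type markers could not be looked up. Positions are those of the files, which name no build, and linkage groups follow the sequence identifiers.

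Together the 54 models held 0.0367% and 0.0391% of all fragments in Brood 1 and 2, 0.461% and 0.685% in Pollen 1 and 2, and 1.12% and 1.04% in Honey 1 and 2. Their scaled fragments summed to 1838 ± 2.40 in Brood, 22168 ± 2917 in Pollen and 24548 ± 2419 in Honey (SD, n = 2 each). The Brood sum was thus 12.1-fold below the Pollen sum and 13.4-fold below the Honey sum. Without gene5941, the most abundant member per length, these folds were 10.1 and 11.2. Both Brood libraries had nearly the same sum, while the Pollen libraries differed by more. In bulk glands, fewer cells of a type and less RNA per cell cannot be told apart.

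The median over the 54 members was 15.2 and 12.7 scaled fragments in Brood 1 and 2, 143 and 168 in Pollen 1 and 2, and 181 and 190 in Honey 1 and 2. As a share of the mean over the Pollen and Honey libraries, the level left in Brood had a median of 8.52% and quartiles of 6.73% and 10.1%, with a highest value of 14.2%. In Brood 1 alone the median share was 9.03% and in Brood 2 it was 8.31%. There were 26 members higher in Brood 1 and 27 higher in Brood 2, so neither library was lower throughout.

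**Figure D1:**
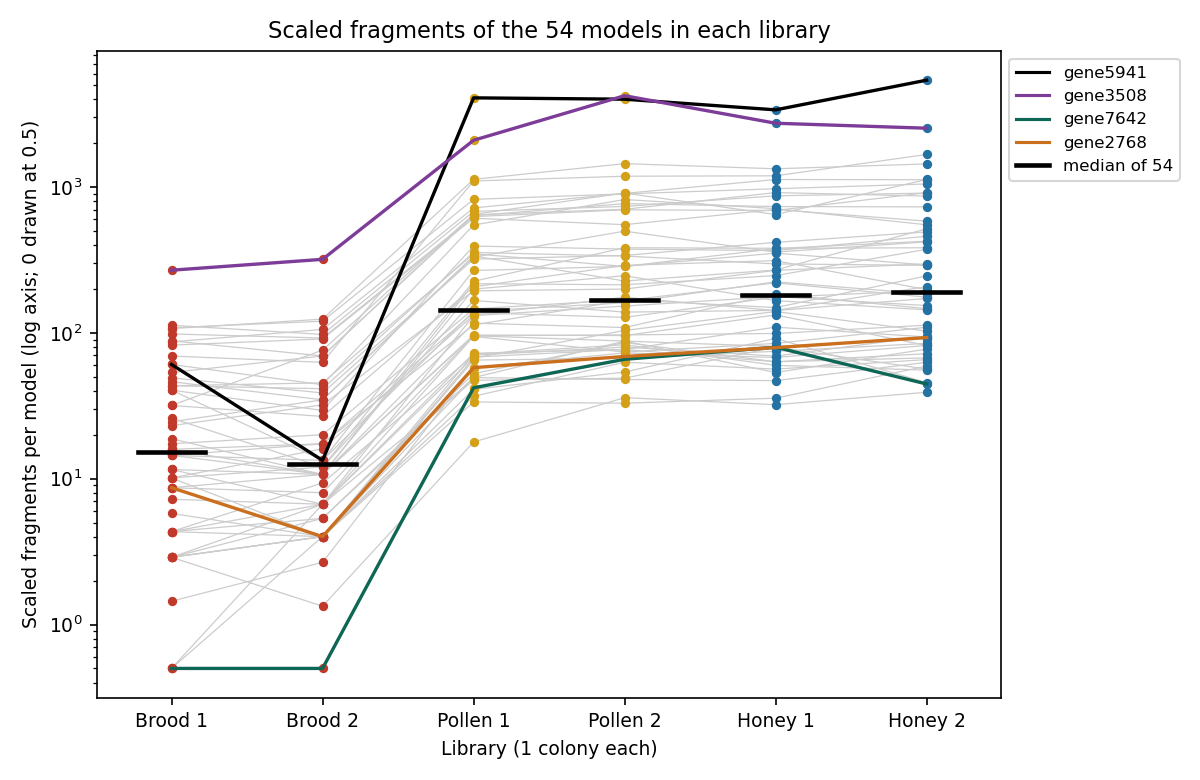
Scaled fragments (log axis) of each of the 54 models in the 6 libraries, with 1 point per model, lines joining the same model and black bars for the median. The medians of the Brood libraries are 15.2 and 12.7, against 143 to 190 in the Pollen and Honey libraries, and gene7642 is at 0 in both Brood libraries.

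The model gene5941 stood furthest apart. It lies on the minus strand of linkage group 7, at 7421481 to 7427444, and its length is 1918 bases. It had 60.7 and 13.4 scaled fragments in Brood 1 and 2, 4086 and 4000 in Pollen 1 and 2, and 3381 and 5402 in Honey 1 and 2. All 4 Pollen and Honey libraries were at least 55.7 times the higher Brood library. The Brood counts behind this were 42 and 10 fragments, so Brood 1 and Brood 2 differed 4.55-fold, the widest gap between Brood libraries among the 26 members with 10 or more fragments in both. Per length it was also the most abundant member. Its deposited FPKM (the authors' level per unit of length) was 4.06 ± 3.77 in Brood, 405 ± 8.30 in Pollen and 428 ± 141 in Honey (SD, n = 2 each). The deposited FPKM did not follow library totals. Pollen 1 had 3893 of 4153354 fragments and an FPKM of 411, while Honey 1 had 6832 of 4120794 and an FPKM of 328.

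The second most abundant, gene3508, on linkage group 4 at 5102879 to 5109347 (3051 bases), had a smaller gap. It had 269 and 319 scaled fragments in Brood 1 and 2, 2092 and 4226 in Pollen 1 and 2, and 2736 and 2530 in Honey 1 and 2. Its Pollen libraries lay 2.02-fold apart, the widest gap between Pollen libraries of any member, and the Pollen range enclosed the Honey values. The Brood values kept 9.28% and 11.0% of its level in the other groups.

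The next most abundant per length was gene5432, on linkage group 6 at 15961586 to 15966841 (3357 bases). It had 107 and 124 scaled fragments in Brood 1 and 2, 1128 and 1446 in Pollen 1 and 2, and 1333 and 1440 in Honey 1 and 2. The other 5 of the 8 members with the highest FPKM were gene1493 on linkage group 1, gene5942 on linkage group 7, gene8232 on linkage group 10, gene7387 on linkage group 9 and gene12632 on an unplaced scaffold. They kept 3.50% to 12.8% of their level in single Brood libraries. Most members were far less abundant. The median FPKM over Pollen and Honey was 7.91 for the 54 and 7.39 for the other models the rule could take, and in Brood it was 0.591 and 7.86. Only 11 members reached an FPKM of 20 or more in Pollen and Honey, and 22 were below 5.

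Several of the largest gaps rested on few Brood fragments. The model gene7642, on linkage group 9 at 10494094 to 10494906, is the shortest member at 813 bases, and its span equals its length. It had 0 and 0 fragments in Brood 1 and 2, 40 and 66 in Pollen 1 and 2, and 161 and 49 in Honey 1 and 2. Set against the limit that a count of 0 allows, 3 fragments per library, it was at least 13.4-fold lower in Brood than in the mean of the other groups. The model gene5140, on linkage group 6 at 7620721 to 7627344 (2805 bases), had 1 and 2 fragments in Brood, 55 and 73 in Pollen, and 137 and 90 in Honey. Its mean in Pollen and Honey was 34.0 times the Brood mean, with an exact 95% Poisson interval of 11.7 to 165 on the Brood fragments alone. Such intervals cover counting error only, not the spread between colonies.

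Larger counts stood behind gene1599, on linkage group 1 at 27873122 to 27989332 (9846 bases), with 48 and 47 fragments in Brood, 1048 and 1188 in Pollen, and 2411 and 1837 in Honey. After scaling these are 69.4 and 62.8 in Brood, 1100 and 1186 in Pollen, and 1193 and 1672 in Honey, so every Pollen and Honey library lay at least 15.9 times above Brood. The same linkage group holds gene1177 (14.8 times), gene1156 (13.9 times) and gene600 (11.5 times), and linkage group 3 holds gene3034 (11.3 times). In all, 12 of the 54 members had a ratio of 10 or more between the lowest Pollen or Honey library and the highest Brood library, and the median ratio was 7.60. Among the 53 members with Brood fragments, the lower end of the counting interval of the fold was 6 or more in 43 and under 6 in 10. The rule required a ratio of at least 6 on these same fragments, so this count is a description and no test. There were 15 members with fewer than 10 fragments in both Brood libraries together.

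**Figure D2:**
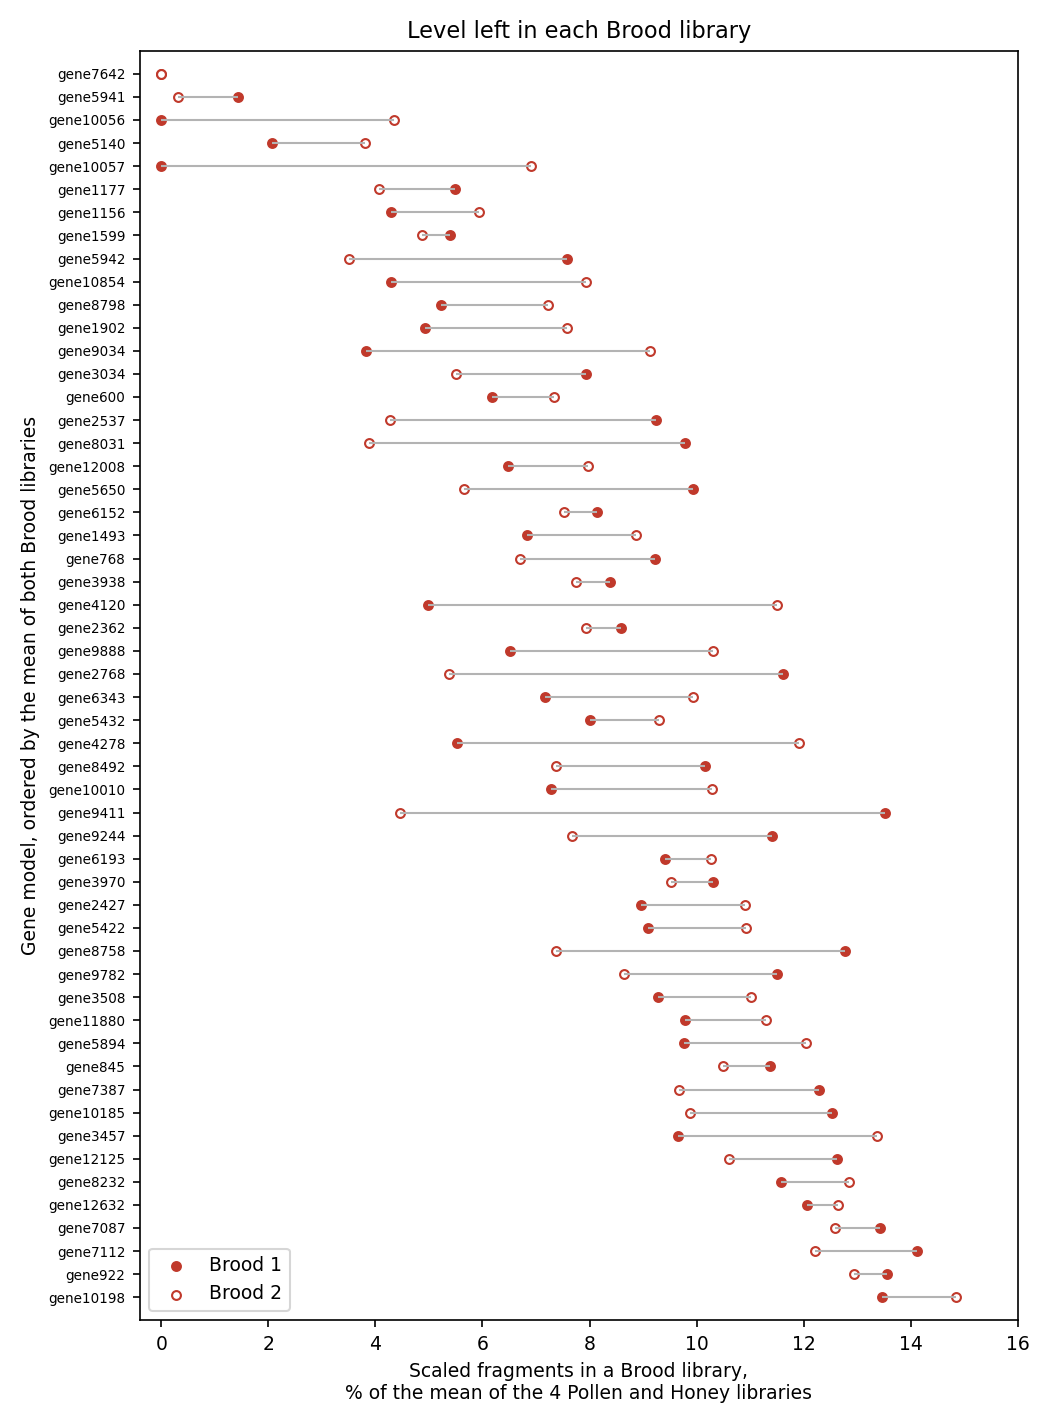
Level of each of the 54 models in Brood 1 (filled) and Brood 2 (open) as a percentage of its mean over the 4 Pollen and Honey libraries, ordered by the mean of both. The values run from 0 for gene7642 to 14.8% for gene10198 in Brood 2, and gene10056 and gene10057 are at 0 in Brood 1 only.

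The threshold cut through a continuous range. Just inside it were gene7112 (ratio 6.03), gene3457 (6.06) and gene10198 (6.08). Just outside were gene5874 (5.96), gene4574 (5.93) and gene6886 (5.89), which met the other criteria. With a ratio of 4 in place of 6 the rule takes 164 models, and with 8 it takes 26.

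The Pollen and Honey levels were not equal within the limit of 1.5-fold. The Pollen mean was below the Honey mean in 44 of 54 members and above it in 10, and the median Pollen over Honey fold was 0.858, with a range of 0.679 to 1.44. In 30 members the Pollen and Honey libraries overlapped. Both Honey libraries lay above both Pollen libraries in 21 members, or 38.9%, against 24.0% of all models with means within 1.5-fold, and 3 members had the opposite order, against 15.0%. These shares are not matched for length. In the longest of 5 length classes, the median log2 change in Pollen vs Honey was -0.26 over all models tested. Over the 35 members in that class it was -0.14, but only members had to lie within 1.5-fold. The lowest of the 4 libraries was Pollen 1 in 33 members, so this library most often set the ratio.

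At the other end were gene5650, on linkage group 7 at 56783 to 110734, and gene1156, on linkage group 1 at 18059578 to 18086089. The model gene5650, chosen after its values were seen as the one furthest above Honey in Pollen, had a Pollen mean 1.44 times its Honey mean. The model gene1156 had 2.89 and 4.01 scaled fragments in Brood, 71.4 and 82.8 in Pollen, and 59.9 and 55.5 in Honey. Both its Pollen libraries lay above both Honey libraries.

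The closeness of Pollen and Honey depends on the scaling. Scaled by library totals alone, the rule takes 27 models, of which 4 are among the 54 (gene1156, gene5650, gene922 and gene3508). The median log2 change of the 54 between Pollen and Honey is then -1.02, where that of all models tested is -0.90, and it is -0.13 where that of all models is -0.01 with the TMM scaling of edgeR. With library totals 30 of 54 members were called lower in Pollen vs Honey by edgeR, where 33.3% of all models were. The limit of 1.5-fold selected members for a small change between Pollen and Honey. Library totals in place of TMM moved the median of all models by -0.89, and the members' median moved with it. Nothing is therefore read from the members' median lying near that of all models. With TMM in place of the size factors the rule takes 42 models, 39 of them among the 54. The authors' normalized values give 41, of which 39 are among the 54.

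**Figure D3:**
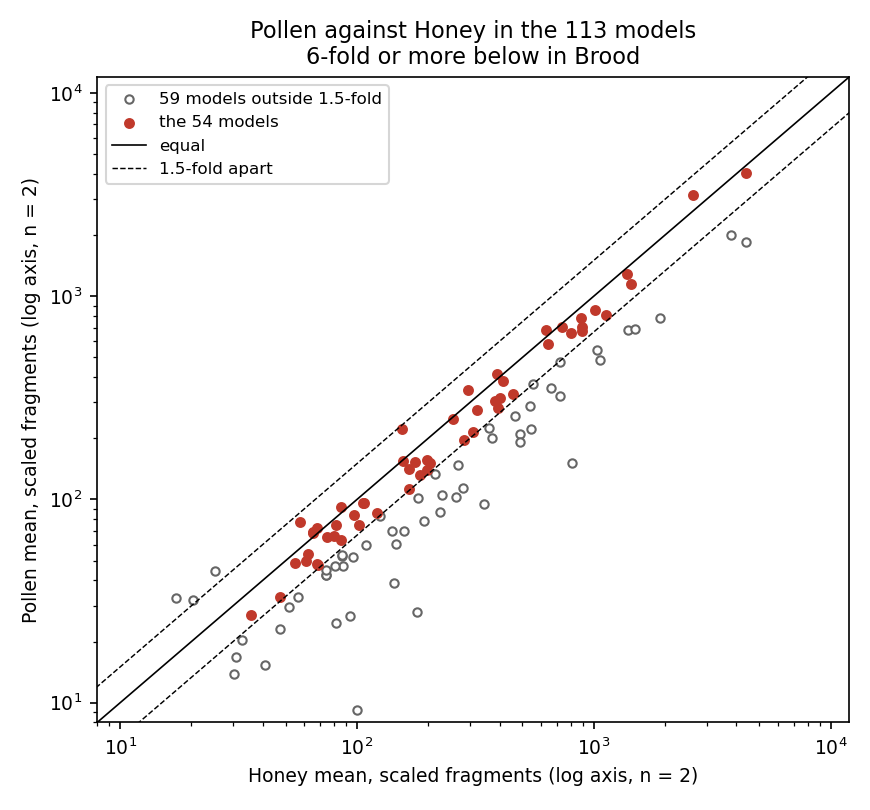
Mean scaled fragments in Pollen against Honey (log axes, n = 2 libraries each) for the 113 models whose lowest Pollen or Honey library is at least 6 times the highest Brood library. The 54 members (red) lie within the dashed 1.5-fold lines, and 55 of the 59 others (open) are higher in Honey.

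For the same ratio without the limit on Pollen and Honey, 113 of the 5018 models qualified, or 2.25%. The 59 that are no members were split 4 higher in Pollen against 55 higher in Honey, so members are the part of a larger set in which the Honey level is mostly the higher one. Among the 5018 models, which leave out those with 10000 or more fragments in a library, the opposite pattern was rarer. Only 3 models had both Brood libraries at least 6 times above the highest Pollen or Honey library with Pollen and Honey means within 1.5-fold, against 54 for the reduction.

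In edgeR's quasi-likelihood test over 6943 models, with Benjamini-Hochberg adjustment, 54 of 54 members were called lower in Brood vs Pollen, where 26.0% of all models were called lower and 48.4% called in either direction. In Brood vs Honey, 54 of 54 were called lower, where 28.8% of all models were called lower and 57.2% in either direction. The rule used all 3 contrasts between groups, Pollen vs Honey among them, and nothing is read from these counts. The median log2 change of the members was -3.27 for Brood vs Pollen, beside -0.00 for all models tested. For Brood vs Honey it was -3.37, beside 0.05. With gene7642 at the limit of its count of 0 the medians were the same. Among the other 53 members the log2 changes ran from -6.62 to -2.60 for Brood vs Pollen, while those for Brood vs Honey lay between -6.64 and -2.55. Both comparisons share the Brood libraries. For Pollen vs Honey, 0 of 54 were called, where 6.16% of all models were called and 1.84% called lower. In edgeR, 1 member had an unadjusted p under 0.05, and the share of all models under it was not counted. DESeq2 and limma also called 0 members, where they called 5.75% and 3.31% of all models. The limit of 1.5-fold selected for such results in all of these fits.

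With age in days from the sample labels added to the fit, 1 member (gene9034) was called lower in Brood vs Pollen, where 0.216% of all models were called lower and 19 of all 6943 in either direction. The members' median log2 change was then -3.53. For Brood vs Honey, 54 of 54 members were called lower with age, at a median of -3.62, where 13.3% of all models were called lower. The members were selected on the same libraries, so neither count is read as a test. Age was estimated there from the gap of 1 day between libraries of a group and extrapolated over the gap between groups. Within groups, age cannot be told apart from replicate number. The label ages also follow the order of the samples, so this fit may not adjust for true age.

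The members were long gene models. Their median length was 4936 bases (quartiles 3494 and 6426), against 2106 bases (1222 and 3586) for the other models the rule could take. When all these models were split by length into 5 classes of nearly equal number, 35 of the 54 members fell into the longest class and 14 into the next, with 3, 1 and 1 in the shorter ones. Members made up 3.49% of the longest class and 0.0995% of the shortest. The 59 models reduced by the same ratio with Pollen and Honey apart had a median length of 4752 bases. The longest member was gene2768 with 57404 bases, on linkage group 3 at 4907981 to 5017520, and its FPKM in Pollen and Honey was only 0.187. It had 8.67 and 4.01 scaled fragments in Brood, 57.7 and 68.9 in Pollen, and 79.2 and 92.8 in Honey.

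Long models as a whole were lower in Brood. In Brood vs Pollen, the median log2 change over all models tested was 0.98 in the shortest class and -1.42 in the longest, and in Brood vs Honey it was 1.37 and -1.62. Members of the longest class had a median of -3.20 in Brood vs Pollen and -3.32 in Brood vs Honey. The rule's ratio of at least 6 placed them below the level of their class by selection. With each library's trend of level on length removed, the members' median became -2.11 in Brood vs Pollen and -2.20 in Brood vs Honey, and 52 of 54 were called lower in each, where 14.7% and 19.0% of all models were. Since the rule chose members on these contrasts, these counts are a description. The exceptions were gene2768 in both comparisons (-0.01 and 0.065), gene2427 in Brood vs Pollen and gene10198 in Brood vs Honey. Applied after this removal, the rule takes 25 models, of which 13 are among the 54, including gene5941, gene5942, gene5432, gene5140, gene10056, gene1156, gene600 and gene3034.

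**Figure D4:**
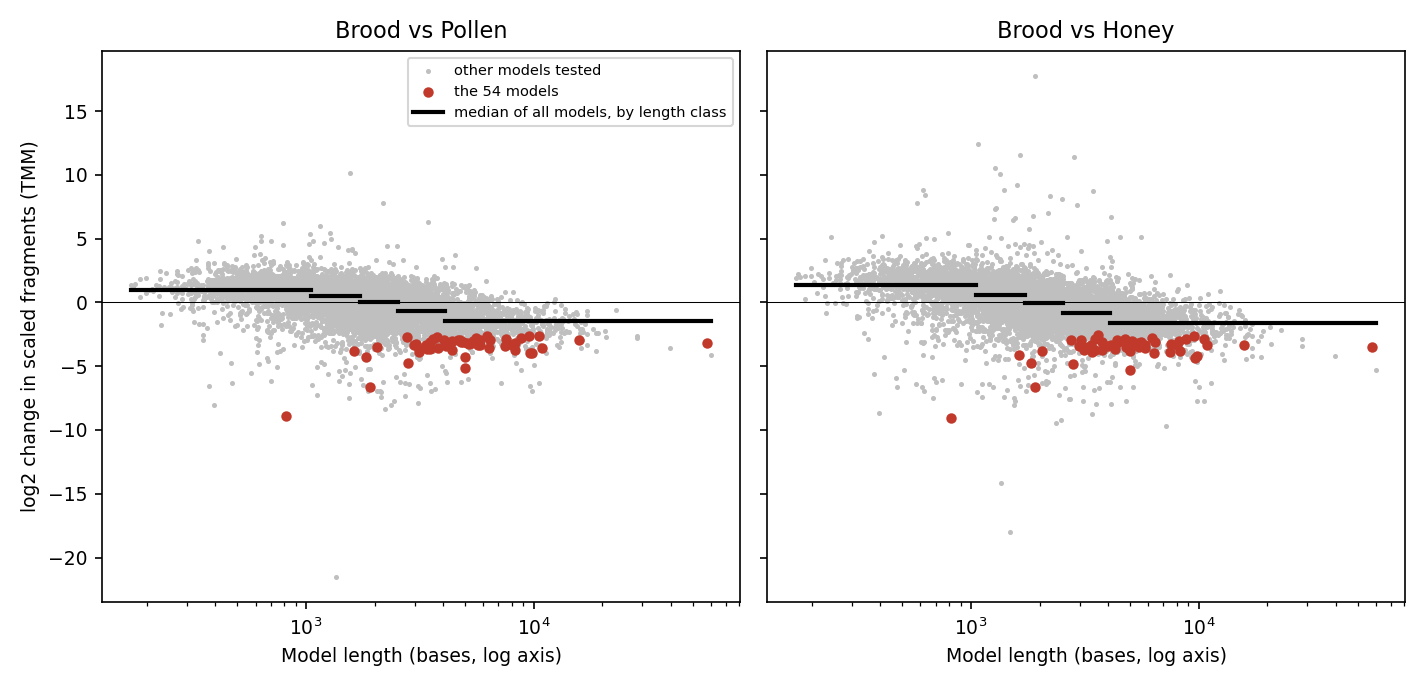
Log2 change against model length (log axis) for the 54 models (red) and all other models tested (grey) in both Brood comparisons, with black bars for the median of all models in each of 5 length classes. The bars fall from 0.98 to -1.42 and from 1.37 to -1.62 with length. All members lie below them, as the ratio used to choose them requires.

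Many members also spanned long stretches of the genome. The span from first to last base had a median of 11777 bases in members, against 4439 in the other models, and was over 100 kb in 7 members (13.0%) against 178 others (3.59%). The widest was gene3938, on linkage group 5 at 878413 to 1134852. Strands were even, with 27 members on the plus strand (50.0%, against 49.5% of the others).

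Members were spread over 15 linkage groups, and 2 lay on unplaced sequence. Linkage group 1 held most, with 8 members beside the 630 other models there that the rule could take. The highest share was on linkage group 13, with 5 members (3.33%), followed by linkage group 7 with 6 (2.63%), and linkage group 15 held 0 of 290. Apart from 2 close pairs, on linkage groups 13 and 7, no member had another within 20 kb. Each pair counts as 2 members in the shares of these linkage groups.

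The first pair is gene5941 and gene5942, next to each other on the minus strand of linkage group 7 with 5536 bases between them. The model gene5942, at 7432981 to 7438728 (1629 bases), had 26.0 and 12.0 scaled fragments in Brood 1 and 2, 226 and 383 in Pollen 1 and 2, and 380 and 383 in Honey 1 and 2. In both models Brood 1 was above Brood 2. The models on either side of the pair, named after their values were seen, differed in size of change. On the plus strand, gene5940 (28287 bases) ends 117 bases before gene5941 and had a log2 change of -2.61 in Brood vs Pollen (adjusted p = 0.00102, edgeR), with 256 and 192 scaled fragments in Brood, 1167 and 1886 in Pollen, and 1102 and 2794 in Honey. On the far side, gene5943 had a log2 change of -0.42 in Brood vs Pollen (adjusted p = 0.252, edgeR), and it was called lower in Brood vs Honey (adjusted p = 0.0117, edgeR).

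The second pair overlaps on opposite strands of linkage group 13. The model gene10056, on the plus strand at 1836745 to 1850128 (4975 bases), had 0 and 5 fragments in Brood, 125 and 153 in Pollen, and 358 and 169 in Honey. The model gene10057, on the minus strand at 1844320 to 1863705 (1826 bases), had 0 and 3 fragments in Brood, 39 and 54 in Pollen, and 185 and 50 in Honey. Its mean in Pollen and Honey was 28.9 times the Brood mean, with an interval of 9.90 to 140. Since no source used here says whether strand was used in the counting, fragments of the pair may not be separable, and it may count as 1 locus.

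**Figure D5:**
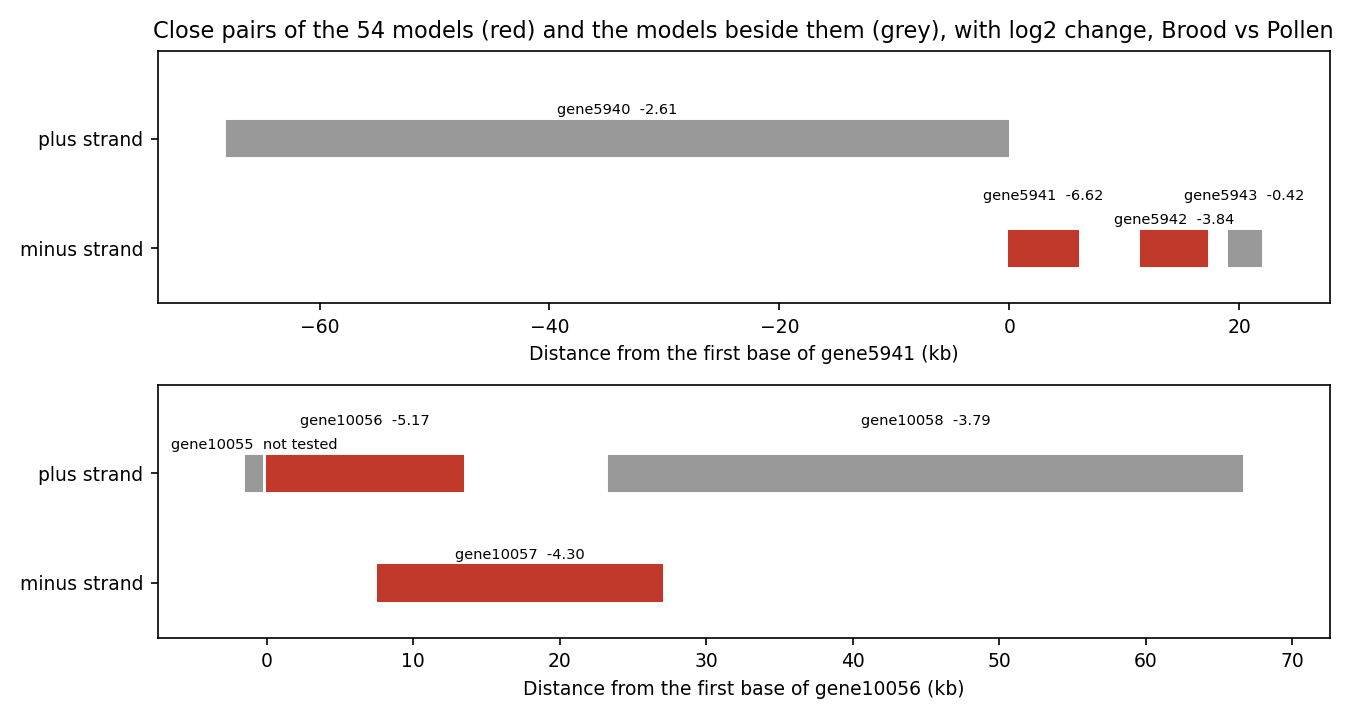
Maps of the 2 close pairs of members (red) and the models beside them (grey), with plus strand above minus strand and distance in kb from the first base of gene5941 and gene10056. Numbers are log2 changes in Brood vs Pollen, which are -6.62 and -3.84 in the first pair and -5.17 and -4.30 in the second.

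The models next to members had no part in the rule. Of 104 adjacent models outside the set, 71 were tested, and in Brood vs Pollen 22 of them were called lower by edgeR, or 31.0%, beside 26.0% of all models tested, while 12 were called higher. In Brood vs Honey, 22 of the 71 were called lower (31.0%, beside 28.8% of all models) and 18 higher. The share called lower next to members was thus near the background in both comparisons. Of all 6943 models tested, 1553 were called higher in Brood vs Pollen and 1971 in Brood vs Honey. There were 17 members that overlapped another model, 13 of them on the opposite strand. Of the 12 tested models outside the set that overlapped a member, 6 were called lower in Brood vs Pollen (50.0%, beside 26.0% of all models) and 1 higher, while in Brood vs Honey 3 were called lower (25%, beside 28.8% of all models) and 2 higher. Shared fragments cannot be told apart from a change of their own. The 2 called higher in Brood vs Honey overlap their member on the opposite strand. Overlapping gene2427, gene2426 had 60 and 17 fragments in Brood, 29 and 21 in Pollen, and 25 and 17 in Honey, with a log2 change of 2.23 in Brood vs Honey (adjusted p = 0.00448, edgeR). Its Brood 2 value, 22.7 scaled fragments, lay within the Pollen range of 21.0 to 30.4. Overlapping gene6343, gene6344 had 95 and 66 fragments in Brood, 48 and 55 in Pollen, and 129 and 68 in Honey, with a log2 change of 1.08 in Brood vs Honey (adjusted p = 0.00989, edgeR), whereas gene6343 had 2 and 3 in Brood, 32 and 33 in Pollen, and 72 and 65 in Honey. Only gene6344 was also called higher in Brood vs Pollen (adjusted p = 0.00741, edgeR). Both were named after their values were seen.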

How the data were processed

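RNA sequencing of 6 libraries was used. Per the file headers, the authors deposited for each gene model a raw fragment count, a normalized count (a signal), an FPKM value and a length. The normalized values lay within 1% of the raw count times 1 factor per library for 78.0% to 86.1% of the models with fragments, and the others were not traced to a rule. The aligner, counter, strand setting, build and annotation are not given in the sources used here. No columns of other samples were present.

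Size factors were medians of ratios over the 4633 models with 10 or more fragments in all libraries. The members, lists and tests were chosen with earlier results of these data known. Raw counts that passed filterByExpr (6943 models, minimum count 10) were scaled by TMM and fitted in edgeR 4.0.16 (R 4.3.3) with 3 group means and a two-sided quasi-likelihood test at an adjusted p under 0.05. The script was tested on simulated data. DESeq2 1.42.0 and limma 3.58.1, on log2(FPKM + 1), were alternatives. The colonies were separate per the labels. Models were named by rule: highest FPKM, largest ratio, nearest the threshold, within 20 kb of another member, longest, shortest, or 0 in a Brood library. A count of 0 was read as at most 3 fragments, which is 1.48 to 4.34 scaled fragments per library. Same-numbered libraries deviated together only weakly.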

Additional observations from a re-analysis of the deposited data

How the results depend on the processing

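The number of models taken by the rule (54) became 27 with library totals, 164 and 26 with a ratio of 4 and 8, 30 with a narrower limit on the gap between Pollen and Honey means, 83 with a 2-fold limit, and 25 with the length trend removed, an alternative chosen after seeing the data, as were no limit on raw fragments (55, adding gene4735) and sums without the most abundant members. Leaving out single libraries gave 58 to 115 models, and 36 of the 54 stayed in all 6 cases. The counts were highest without Brood 1 (115), Brood 2 (114) and Pollen 1 (100). They were 58 without Pollen 2, 67 without Honey 1 and 59 without Honey 2. Fewer libraries must then meet the ratio, but the group means used in the other limits change too. Of the members, 54 were called in Brood vs Pollen, but 1 with age as a covariate, and 0 were called in Pollen vs Honey, but 30 with library totals. Their median log2 change in Brood vs Pollen was -3.75 with library totals, -2.11 with the length trend removed, -3.53 with age and -2.12 in limma on FPKM, and in Brood vs Honey it was -4.73, -2.20, -3.62 and -2.18 in the same order. In Pollen vs Honey it was -1.02 with library totals. The limma values are on the log2(FPKM + 1) scale, which understates low models. The cause of the others was not tested. With library totals the median of all models moved by -0.46, -1.35 and -0.89 in Brood vs Pollen, Brood vs Honey and Pollen vs Honey. Of all models, 3359 were called in Brood vs Pollen (1964 with the length trend removed and 19 with age), 3969 in Brood vs Honey (2593 and 1815) and 428 in Pollen vs Honey (2448 with library totals, 795 without filter, 33 with age and 230 with limma). Without single libraries these counts were 2306 to 3146, 3031 to 4029 and 134 to 549, the lowest in Pollen vs Honey being 134 without Honey 1 and 185 without Honey 2, where a group's single library was taken to vary as much as the rest. The members called stayed at 54, 54 and 0 without any 1 library, and the members' medians ran from -3.34 to -3.19, -3.45 to -3.32 and -0.23 to -0.06. With the replicate number as a block, 54, 54 and 0 members were called in the same order, beside 47.7%, 56.2% and 6.27% of all models. Within each group the label age rises with replicate number, so the age fit holds the same term as this block. The age fit differs only in carrying that term over the gap in days between groups, so these are not separate alternatives. Correlations of deviations between libraries of the same number were weak, at 0.13, 0.04 and -0.06. With 2 libraries a group, these values cannot exclude that libraries of the same number were handled together. Among named members, the log2 change of gene2768 in Brood vs Honey turned to 0.065 with the length trend removed. In the other alternatives for named members 562 values kept direction and call, and 25 kept the direction but lost the call, 21 of them with age. Depth limits the lowest members, since 15 had fewer than 10 fragments in Brood in all.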
